A study of Mus musculus with 8 samples.

Results

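The TGF-beta ligands (Tgfb1, Tgfb2, Tgfb3), the latent TGF-beta binding proteins (Ltbp1, Ltbp2, Ltbp3, Ltbp4) and the TGF-beta receptors (Tgfbr1, Tgfbr2, Tgfbr3) are described here in bone of Hyp and wild-type (WT) mice. The 10 genes were taken by name, and each probe set annotated to exactly 1 of these symbols was used. They had 24 of the 45037 probe sets tested, and all 10 were found among the 18193 genes with a value. Total RNA was taken from tibia and femur when the animals, all male, were 12 days old. In Hyp mice, on C57BL/6, the 3′ part of Phex is deleted, and they are a model of X-linked hypophosphatemia, and the comparison animals are labelled wild type. Mice were kept on a standard diet, 2 bone samples of 1 genotype were combined for each RNA, and there were 4 arrays per genotype. The labels call these separate samples without naming the animals, so p-values measure the spread between RNA samples. The series asks which genes differ in Hyp bone, under a title that concerns regulators of Fgf23 and of mineralization.

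TGF-beta is secreted in a latent form, in which the propeptide stays wrapped around the mature dimer. This small complex is disulfide-bonded to a latent TGF-beta binding protein, which ties it to the fibrillin microfibrils of the matrix until integrins, proteases or acid release it. The free ligand binds the kinase receptor Tgfbr2, which recruits and activates Tgfbr1, and SMAD proteins carry the signal to the nucleus. Bone matrix is a large store of latent TGF-beta, laid down by osteoblasts and freed when osteoclasts resorb bone.

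All values are on the log2 scale and were centred on the median of each probe set over the 8 arrays. A value therefore says how an array stood against the other arrays for that gene, and neither levels nor detection can be read or ordered between genes. Phex, the gene deleted in Hyp, fell by 8.31 ± 0.21 (SE) at 1 probe set and by 5.03 ± 0.20 at the other (4 arrays a genotype, limma adjusted p = 5.22e-08 and 2.15e-06), with every Hyp array below every WT array. WT replicate 3 stood apart on the component that held 22.6% of the variance, and its mean over 12 skeletal muscle markers was 1.93, with the other arrays between -1.34 (Hyp replicate 2) and 0.32. In whole bone, fewer cells of a type and less RNA per cell cannot be told apart.

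The stretches before the gene starts of 4 members are shown: the ligand that fell (Tgfb2), a ligand that did not pass (Tgfb1) and the latent TGF-beta binding proteins that rose (Ltbp2 and Ltbp4). Each is the 250 bases before a start in RefSeq (GRCm38.p6). Such stretches were at hand for 8 of the 10 genes, all but Tgfb3 and Tgfbr3. They are 5′ to 3′ on the gene's strand, with capitals for any match to 5 motifs searched on either strand, where matches may overlap. The GC box bound by Sp1 was spelled GGGCGG. The core promoter element called TATA box was spelled TATAAA. For the element that CREB binds under cyclic AMP the letters were TGACGTCA. Sites of the AP-1 dimer of Fos and Jun were spelled TGANTCA, with N for any base. The short motif recognised by SMAD proteins was searched as CAGAC.
Tgfb1, chr7:25686752-25687001, plus strand: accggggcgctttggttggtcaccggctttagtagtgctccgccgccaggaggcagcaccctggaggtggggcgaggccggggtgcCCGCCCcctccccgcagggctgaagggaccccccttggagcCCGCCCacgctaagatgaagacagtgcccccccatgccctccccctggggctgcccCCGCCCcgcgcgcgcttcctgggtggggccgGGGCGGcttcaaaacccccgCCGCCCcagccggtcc
Tgfb2, chr1:186705990-186706239, minus strand: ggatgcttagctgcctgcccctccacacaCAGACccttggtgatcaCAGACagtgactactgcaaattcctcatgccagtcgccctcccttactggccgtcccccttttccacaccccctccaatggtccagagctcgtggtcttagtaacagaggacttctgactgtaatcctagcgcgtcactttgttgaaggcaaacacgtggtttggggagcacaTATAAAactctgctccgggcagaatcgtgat
Ltbp2, chr12:84876492-84876741, minus strand: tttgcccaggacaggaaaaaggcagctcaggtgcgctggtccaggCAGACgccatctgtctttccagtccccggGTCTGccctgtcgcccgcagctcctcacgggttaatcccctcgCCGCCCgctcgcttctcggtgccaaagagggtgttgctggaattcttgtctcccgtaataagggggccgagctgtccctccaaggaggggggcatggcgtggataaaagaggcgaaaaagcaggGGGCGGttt
Ltbp4, chr7:27337613-27337862, minus strand: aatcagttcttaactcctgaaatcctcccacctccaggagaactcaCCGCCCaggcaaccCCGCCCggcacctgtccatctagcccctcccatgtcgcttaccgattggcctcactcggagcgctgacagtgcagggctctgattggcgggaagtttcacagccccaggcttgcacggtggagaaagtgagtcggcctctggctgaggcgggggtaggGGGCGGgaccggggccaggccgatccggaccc
The Tgfb1 stretch held 5 GC boxes and was 75.2% G and C, against a median of 52.4% over the 32851 stretches of the table. The Tgfb2 stretch was 53.6% G and C and held 2 SMAD motifs and a TATA box 31 to 26 bases before the start, while no GC box was matched. The Ltbp2 stretch had 2 GC boxes and 2 SMAD motifs. The Ltbp4 stretch shown, the furthest upstream of its 3 in the table, had 3 GC boxes and was 64.4% G and C, and the other two, which overlap each other, had 5 and 7 and were both 79.2% G and C. Of all stretches 32.7% held a GC box, 12.4% a TATA box, 42.2% a SMAD motif, 6.75% an AP-1 site and 1.55% a cyclic AMP response element. For Tgfb2, Ltbp2 and Ltbp4 the RefSeq gene record reaches further upstream, so other starts exist, and a match of letters does not show a bound site.

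Of the 10 genes, 3 were higher in Hyp bone and 1 was lower: Ltbp2, Ltbp4 and Tgfbr3 rose, and Tgfb2 fell. These are calls on gene means (limma, adjusted p under 0.05 over all genes), and 12.9% of all genes tested passed in either direction, 6.54% as higher and 6.32% as lower. The groups did not overlap for the same 4 members, as for 19.2% of all genes. The median difference over the 10 genes was 0.12, against 0.025 over all genes. By probe set, 3 of 24 were higher and 2 lower, where 7.13% of all probe sets passed (3.22% higher and 3.91% lower), and the groups did not overlap at 7 of 24, against 15.5% of all.

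**Figure D1:**
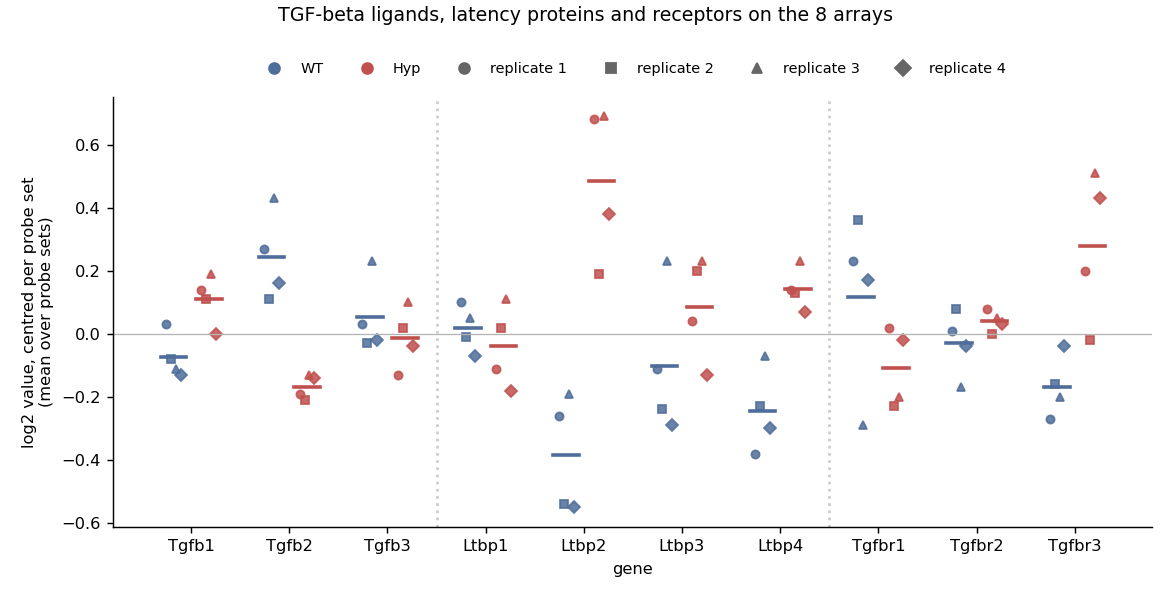
Centred log2 values of the 10 genes (vertical axis, mean over a gene's probe sets) on the 4 WT and 4 Hyp arrays. Points are arrays with a shape for each replicate number, and bars are group means; Hyp lies wholly below WT for Tgfb2 and wholly above it for Ltbp2, Ltbp4 and Tgfbr3.

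**Figure D2:**
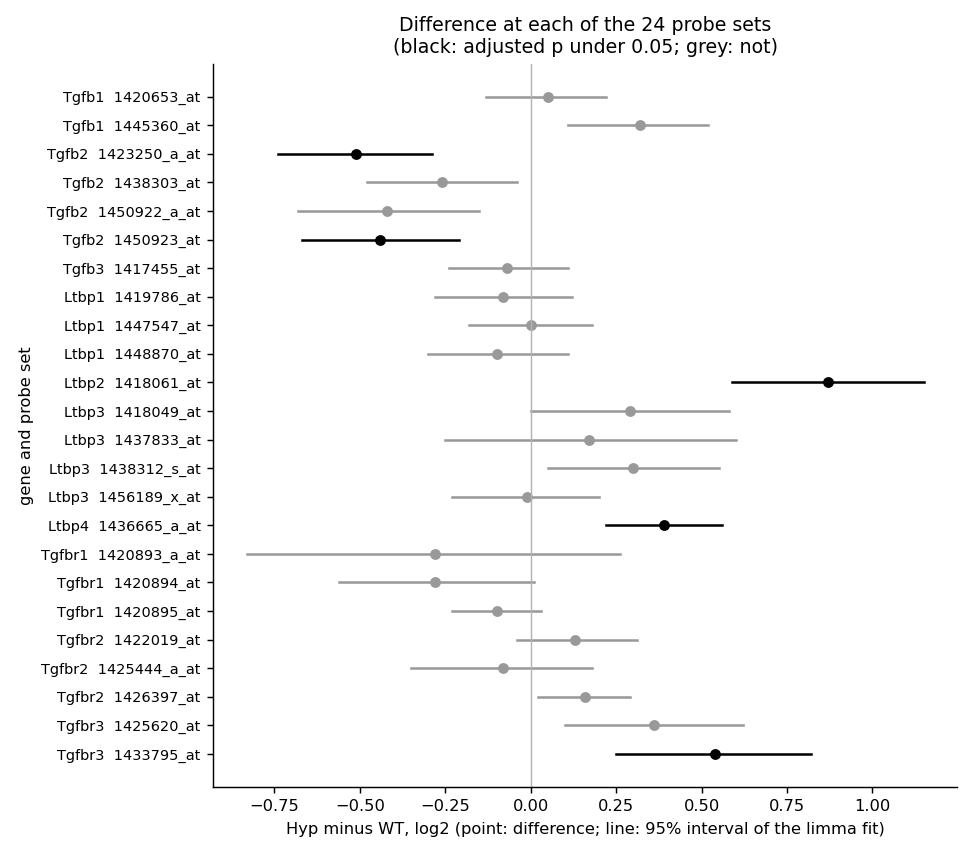
Hyp minus WT difference (horizontal axis, log2) at each of the 24 probe sets, with the 95% interval of the limma fit. Black marks the 5 probe sets past the threshold, 2 of Tgfb2 and 1 each of Ltbp2, Ltbp4 and Tgfbr3.

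Among the ligands, Tgfb2 was lower in Hyp bone. It encodes the isoform that depends on betaglycan for high-affinity binding. Its gene mean lay at -0.19, -0.21, -0.13 and -0.14 in Hyp replicates 1 to 4 and at 0.27, 0.11, 0.43 and 0.16 in WT replicates 1 to 4. Every Hyp array was below every WT array, and the 4 Hyp arrays lay close together (SD 0.04, against 0.14 in WT). Tgfb2 fell by 0.41 ± 0.07 (SE, 4 arrays a genotype; limma adjusted p = 0.00372), which is 1.33-fold lower in Hyp.

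All 4 probe sets of Tgfb2 were lower, and 2 of them passed. Probe set 1423250_a_at fell by 0.51 ± 0.10 (SE; limma adjusted p = 0.0132) and 1450923_at by 0.44 ± 0.10 (adjusted p = 0.03). The other two lay at -0.42 ± 0.12 (1450922_a_at, adjusted p = 0.063, groups apart) and -0.26 ± 0.10 (1438303_at, adjusted p = 0.159, groups overlapping). The call at single probe sets rested on few arrays: 1423250_a_at missed the threshold without WT replicate 1 (adjusted p = 0.051), and 1450923_at missed it without any 1 of the 4 Hyp arrays or WT replicate 4 (adjusted p up to 0.0808). The gene mean passed with each array left out (adjusted p from 0.00339 to 0.0153).

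Tgfb1, the isoform most abundant in bone matrix, did not pass, and its probe sets differed. Its gene mean was 0.14, 0.11, 0.19 and 0.00 in Hyp and 0.03, -0.08, -0.11 and -0.13 in WT, with 3 Hyp arrays above all WT arrays and Hyp replicate 4 among them. The difference was 0.18 ± 0.06 (SE; limma adjusted p = 0.0715, 95% interval 0.05 to 0.31). Probe set 1445360_at lay at 0.32 ± 0.09 (adjusted p = 0.0728) and 1420653_at at 0.05 ± 0.08 (adjusted p = 0.782). Without Hyp replicate 4 the gene mean differed by 0.22 and passed (adjusted p = 0.0465).

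Tgfb3, the third isoform, had 1 probe set. Its values were -0.13, 0.02, 0.10 and -0.04 in Hyp and 0.03, -0.03, 0.23 and -0.02 in WT, and the groups overlapped. The difference was -0.07 ± 0.07 (SE; limma adjusted p = 0.605), with a 95% interval from -0.23 to 0.10.

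Among the latency proteins, Ltbp2 showed the largest difference of the 10 genes. LTBP-2 is the member of its family that does not bind latent TGF-beta and is a microfibril-associated protein of elastic tissues. At its 1 probe set, 1418061_at, the Hyp arrays lay at 0.68, 0.19, 0.69 and 0.38 and the WT arrays at -0.26, -0.54, -0.19 and -0.55. All Hyp arrays were above all WT arrays, and Hyp replicate 2 was the lowest of them. Ltbp2 rose by 0.87 ± 0.12 (SE, 4 arrays a genotype; limma adjusted p = 0.00116), or 1.82-fold. It passed with each array left out, with differences from 0.80 to 0.96.

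Ltbp4, which binds latent TGF-beta weakly and takes part in elastic fibre assembly, was also higher. Its 1 probe set, 1436665_a_at, read 0.14, 0.13, 0.23 and 0.07 in Hyp and -0.38, -0.23, -0.07 and -0.30 in WT. The groups were apart, with WT replicate 3 the highest of the WT arrays. Ltbp4 rose by 0.39 ± 0.07 (SE; limma adjusted p = 0.00458), or 1.31-fold. Stretches before 3 starts of Ltbp4 were at hand, and other starts exist. Which transcripts this probe set reads was not examined, as no probe sequences were available.

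Ltbp1 and Ltbp3, the principal carriers of latent TGF-beta in matrix, did not pass. The gene mean of Ltbp1 was -0.11, 0.02, 0.11 and -0.18 in Hyp and 0.10, -0.01, 0.05 and -0.07 in WT, a difference of -0.06 ± 0.07 (SE; limma adjusted p = 0.643, 95% interval -0.21 to 0.10). Its 3 probe sets lay between -0.10 and 0.00. Ltbp3 read 0.04, 0.20, 0.23 and -0.13 in Hyp and -0.11, -0.24, 0.23 and -0.29 in WT, a difference of 0.19 ± 0.12 (adjusted p = 0.332). Its groups overlapped: WT replicate 3 was as high as the highest Hyp array, and Hyp replicate 4 lay below WT replicate 1. Without WT replicate 3 the difference was 0.30 (adjusted p = 0.0541). Of the 4 Ltbp3 probe sets, 3 lay between 0.17 and 0.30 and 1456189_x_at lay at -0.01. The suffix of 1456189_x_at marks probes that can match other sequences, and 1438312_s_at, at 0.30, also carries a shared-probe suffix.

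Among the receptors, Tgfbr3 was higher in Hyp bone. It encodes betaglycan, a coreceptor with no kinase that presents ligand, TGF-beta 2 above all, to Tgfbr2. Its gene mean was 0.20, -0.02, 0.51 and 0.43 in Hyp and -0.27, -0.16, -0.20 and -0.04 in WT, so the groups did not overlap, though Hyp replicate 2 lay next to WT replicate 4. Tgfbr3 rose by 0.45 ± 0.11 (SE, 4 arrays a genotype; limma adjusted p = 0.0204), or 1.36-fold. Probe set 1433795_at rose by 0.54 ± 0.13 (adjusted p = 0.0316), and 1425620_at lay at 0.36 ± 0.12 (adjusted p = 0.0999).

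The Tgfbr3 call was the least firm of the 4. Leaving out Hyp replicate 3, Hyp replicate 4 or WT replicate 1 ended the call (differences 0.37, 0.40 and 0.41, adjusted p = 0.0509, 0.0562 and 0.0662). Without Hyp replicate 2 it was 0.55 (adjusted p = 0.00385).

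The kinase receptors Tgfbr1 and Tgfbr2 did not pass with all 8 arrays. Tgfbr1, the type I receptor, read 0.02, -0.23, -0.20 and -0.02 in Hyp and 0.23, 0.36, -0.29 and 0.17 in WT. WT replicate 3 was the lowest of all 8 arrays, while the other 3 WT arrays were above every Hyp array. The difference was -0.22 ± 0.12 (SE; limma adjusted p = 0.285, 95% interval -0.49 to 0.05), and -0.36 without WT replicate 3 (adjusted p = 0.0147). Without both WT replicate 3 and Hyp replicate 2, the arrays at the ends of the muscle marker range, it was -0.32 (adjusted p = 0.0345). The part of muscle in the Tgfbr1 values was not tested.

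The gap at WT replicate 3 differed between the Tgfbr1 probe sets. That array lay at -0.75 at 1420893_a_at and -0.22 at 1420894_at, but at 0.10, the highest of the 8, at 1420895_at. The differences of these probe sets were -0.28 ± 0.24 (SE), -0.28 ± 0.13 and -0.10 ± 0.06 (limma adjusted p = 0.544, 0.238 and 0.378).

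Tgfbr2, the ligand-binding type II receptor, lay at 0.08, 0.00, 0.05 and 0.03 in Hyp and at 0.01, 0.08, -0.17 and -0.04 in WT. The difference was 0.07 ± 0.06 (SE; limma adjusted p = 0.487, 95% interval -0.06 to 0.20). Its probe sets went both ways, from -0.08 to 0.16, and at 1426397_at all Hyp arrays were above all WT arrays without passing (0.16 ± 0.06, adjusted p = 0.17).

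**Figure D3:**
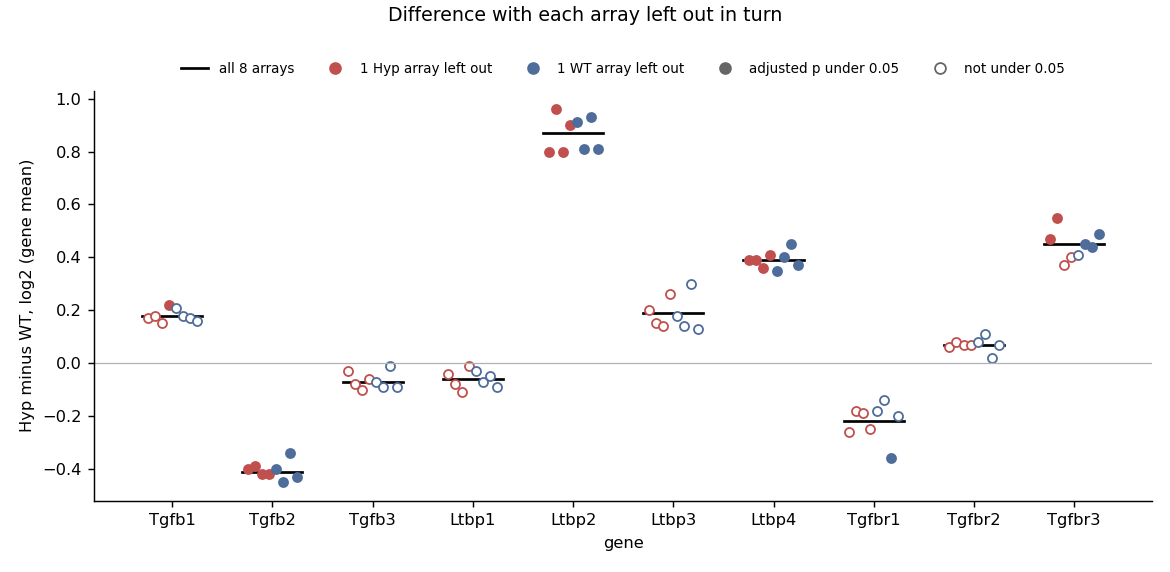
Hyp minus WT difference of each gene (vertical axis, log2) with all 8 arrays (black line) and with each array left out in turn (red, a Hyp array; blue, a WT array; filled, adjusted p under 0.05). Tgfb2, Ltbp2 and Ltbp4 stay filled throughout, Tgfbr3 is open in 3 cases, and Tgfbr1 and Tgfb1 are filled in 1 case each.

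In each class, 1 or more pairs of members did not change alike. In 12 pairs within ligands, latency proteins and receptors, the change of 1 gene relative to the other on the same array was compared between genotypes by a two-sided exact permutation test. The groups did not overlap in 7 pairs, all at the smallest p that 4 against 4 arrays allow (exact permutation p = 0.0286, adjusted over the 12 pairs 0.049). That adjusted value lies just under the threshold and depends on how many pairs reached the smallest p. Pairs share genes, so the 12 tests are not independent. Among ligands, the Hyp minus WT difference of Tgfb1 exceeded that of Tgfb2 by 0.59 ± 0.09 (SE) and that of Tgfb3 by 0.25 ± 0.09, and that of Tgfb2 minus that of Tgfb3 was -0.34 ± 0.05. Among latency proteins, that of Ltbp2 exceeded those of Ltbp1 and Ltbp3 by 0.93 ± 0.14 and 0.68 ± 0.15, and that of Ltbp4 exceeded that of Ltbp1 by 0.45 ± 0.08. Among receptors, that of Tgfbr3 exceeded that of Tgfbr1 by 0.67 ± 0.19. The pairs were tested on gene means only, although probe sets of a gene could differ. Those of Tgfb1 lay at 0.32 (1445360_at) and 0.05 (1420653_at) and that of Tgfb3 at -0.07, so the gap between these ligands was smaller at 1420653_at.

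The other 5 pairs did not pass. Ltbp2 against Ltbp4 differed by 0.48 ± 0.14 (SE) and Tgfbr2 against Tgfbr3 by -0.38 ± 0.13 (exact permutation p = 0.0571 and adjusted p = 0.0762 for both). Tgfbr1 against Tgfbr2 (-0.29 ± 0.11), Ltbp1 against Ltbp3 (-0.25 ± 0.10) and Ltbp3 against Ltbp4 (-0.20 ± 0.10) had exact permutation p from 0.0857 to 0.143. These 7 calls cannot be repeated with an array left out, since that design does not reach the threshold.

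Genes that carry, release or read TGF-beta went both ways. Over 5 lists with the 10 members left out, 18 of 78 measured genes were higher and 18 lower, with a median of -0.002, where 12.9% of all genes passed and their median was 0.025. Without WT replicate 1, 10 were higher and 12 lower. Genes of these lists outside the naming rule are marked as named after their values were seen.

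Of 18 measured activators and carriers, 5 were higher and 5 lower (median -0.046). Pcsk6 and Pcsk5, proprotein convertases, fell by 1.25 ± 0.11 (SE) and 0.69 ± 0.06, though the 5 probe sets of Pcsk5 ranged from -1.35 to 0.12. Itgb5, an integrin chain that pairs with the alpha v chain and binds latent TGF-beta, rose by 0.32 ± 0.05, and Tgm2, a transglutaminase that crosslinks matrix, by 0.33 ± 0.06 (limma adjusted p for these 4 genes from 6.3e-05 to 0.00359). Named after their values were seen, Nrros, which holds latent TGF-beta on myeloid cells, the protease Mmp14 and the plasminogen activator Plau rose by 0.31 ± 0.06, 0.28 ± 0.06 and 0.42 ± 0.11, and Thbs1, Itgb8 and Bmp1 fell by 0.33 ± 0.08, 0.41 ± 0.11 and 0.30 ± 0.08. The probe sets of Bmp1 ranged from -0.73 to 0.16. Fewer were lower with 1 array left out: 2 without Hyp replicate 1, Hyp replicate 2 or WT replicate 1, and 3 without Hyp replicate 4 or WT replicate 3. Thbs1, Itgb8 and Bmp1 were the genes lost (adjusted p up to 0.0699, 0.119 and 0.166 over all alternatives), and Plau was lost without any array but Hyp replicate 1 and WT replicate 3, and under cyclic loess normalization (up to 0.101).

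Of 17 measured microfibril proteins and extracellular modulators, 5 were higher and 5 lower (median -0.028). Eln (elastin) rose by 1.43 ± 0.12 (SE) and Fbln5 (fibulin 5), which links elastin to microfibrils, by 0.55 ± 0.07, while Vasn (vasorin), which binds TGF-beta, fell by 0.62 ± 0.06 and the proteoglycan Fmod by 0.86 ± 0.09 (limma adjusted p from 6.19e-05 to 0.000869). Named after their values were seen, Adamtsl2, a microfibril-bound regulator, the protease Htra1 and Fbln2 rose by 0.95 ± 0.14, 0.63 ± 0.10 and 0.26 ± 0.06, and Fbn2 (fibrillin 2), Bgn and Dcn fell by 0.52 ± 0.10, 0.33 ± 0.06 and 0.29 ± 0.08. The 2 probe sets of Fbln2 (-0.21 and 0.72) and of Dcn (-0.64 and 0.06) disagreed. Dcn passed with 1 array left out only for Hyp replicates 3 and 4, and Fbln2 was lost without Hyp replicate 1, Hyp replicate 4 or WT replicate 1 (adjusted p up to 0.15 and 0.0757 over all alternatives).

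Of 6 measured genes in the list of coreceptors and endothelial TGF-beta receptors, not all of them coreceptors, 4 were higher and 1 lower (median 0.268). Eng (endoglin) and Acvrl1, coreceptor and type I receptor of endothelial cells, rose by 0.51 ± 0.05 (SE) and 0.34 ± 0.08, Sdcbp (syntenin) rose by 0.20 ± 0.05, and Bambi, a pseudoreceptor without kinase activity, fell by 0.50 ± 0.09 (limma adjusted p from 0.000186 to 0.0197). Nrp1 (neuropilin 1), named after its values were seen, rose by 0.40 ± 0.10. Without WT replicate 1, where Acvrl1, Sdcbp and Nrp1 missed the threshold, 1 gene of the list was higher, and without Hyp replicate 3, where Sdcbp and Nrp1 did, 2 were. Nrp1 was also lost without Hyp replicate 2 or any 1 of WT replicates 2 and 4.

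Of 19 measured SMADs and SMAD regulators, 3 were lower and 1 higher (median -0.022). The inhibitory Smad6 and Smad7 fell by 0.41 ± 0.08 (SE) and 0.26 ± 0.06 and the corepressor Tgif1 by 0.26 ± 0.06, and the corepressor Ski rose by 0.21 ± 0.05 (limma adjusted p from 0.011 to 0.0206). Ski missed the threshold without any 1 of Hyp replicates 1, 2 and 3 or WT replicates 1 and 4, and Tgif1 without Hyp replicate 3 or any 1 of WT replicates 1 and 4.

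Of 25 measured TGF-beta response genes, which include the members Ltbp2 and Tgfb1, 4 were higher and 6 lower (median 0.04). Lox, the collagen and elastin crosslinking enzyme, and Timp1, a metalloproteinase inhibitor, fell by 0.78 ± 0.06 (SE) and 0.61 ± 0.10, and the cell cycle inhibitor Cdkn2b rose by 0.39 ± 0.08 (limma adjusted p from 4.05e-05 to 0.00795). Named after their values were seen, Tgfbi and Col1a1 rose by 0.25 ± 0.05 and 0.47 ± 0.12, and Col3a1 and Cdkn1a fell by 0.24 ± 0.05 and 0.35 ± 0.10, beside Smad7 and Tgif1. The 2 probe sets of Col1a1 lay at -0.14 and 1.08. Without WT replicate 1, where Tgfbi and Col1a1 missed the threshold, 2 genes were higher. Col1a1 was also lost without any 1 of Hyp replicates 2 and 3 and WT replicates 2 and 4, and Cdkn1a without any array but Hyp replicate 3 (adjusted p up to 0.122). Named likewise, Ccn2 lay at -0.43 ± 0.18 (adjusted p = 0.156) and Postn at 0.00 ± 0.05 (adjusted p = 0.97).

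**Figure D4:**
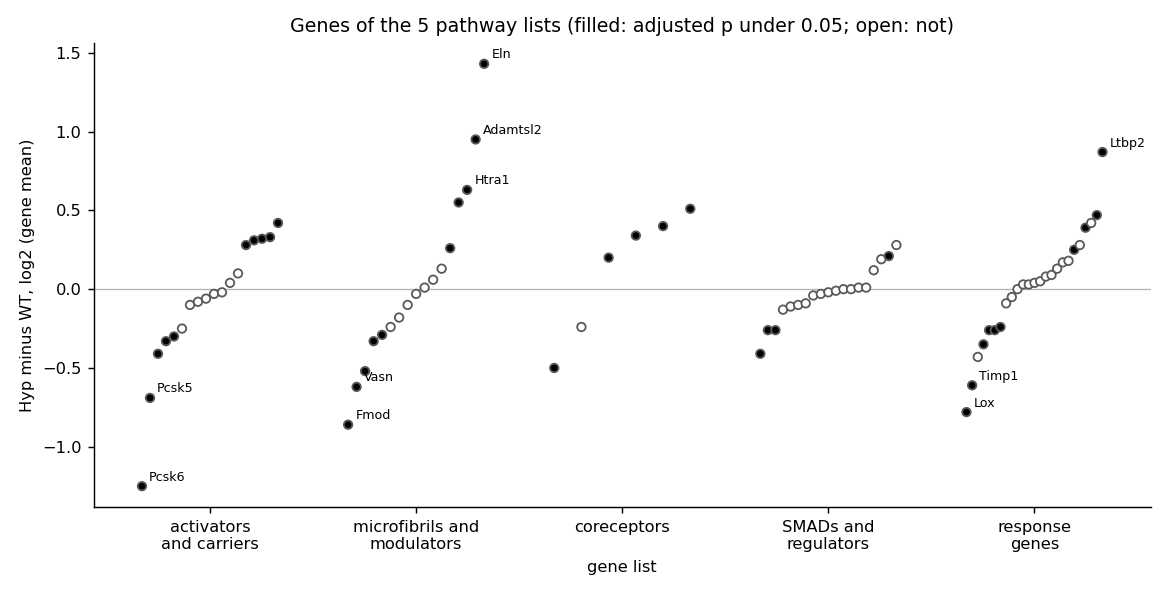
Hyp minus WT difference (vertical axis, log2, gene means) of each gene in the 5 lists, ordered by size within a list; filled points have an adjusted p under 0.05. Every list holds filled points on both sides of 0, and names mark filled genes beyond 0.6.

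Markers of several cell types also differed between genotypes, where 12.9% of all genes tested passed. Osteoblast markers were lower in 7 of 8 measured genes, with list means from -0.49 to -0.25 in Hyp and from 0.28 to 0.43 in WT, the direction of Tgfb2. Osteocyte markers were lower in 3 of 7 and higher in 2, with list means from -0.44 to -0.07 in Hyp and from 0.06 to 0.38 in WT. The direction of that mean rests on Phex, the deleted gene (-6.67 on gene means), as long as Fgf23 (5.61) stays in the list. Phex and Fgf23 pull the mean in opposite directions, and a mean without both was not taken. Named after their values were seen, Sost (-1.85) and Cdo1 (-1.0) were lower and Mepe (0.87) was higher. Dmp1 (0.14) and Pdpn (-0.13), named likewise, did not pass. Endothelial markers were higher in 11 of 12 (0.11 to 0.26 in Hyp, -0.34 to -0.17 in WT), pericyte and smooth muscle markers in 5 of 10 (0.13 to 0.17 against -0.30 to -0.12), monocyte and macrophage markers in 9 of 12 (0.21 to 0.37 against -0.39 to -0.25) and erythroid markers in 6 of 7 (0.04 to 0.19 against -0.40 to -0.13), the direction of Ltbp2, Ltbp4 and Tgfbr3. Eng stands in the endothelial list and in the coreceptor list. The part of these cells in the differences of the members was not tested.

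The means of the other lists overlapped between genotypes, except those of osteoclast markers, which were lower in 1 of 9 (-0.10 to -0.02 in Hyp, -0.02 to 0.09 in WT, apart before rounding). Chondrocyte markers were higher in 5 of 11 and lower in 1, with overlapping means (-0.07 to 0.31 in Hyp, -0.34 to 0.05 in WT). Platelet and megakaryocyte markers, a cell type rich in TGF-beta 1, had no call in 10 (-0.23 to 0.07 and -0.02 to 0.13). Skeletal muscle markers had none in 12. Fibroblast and tendon markers were lower in 5 of 12 and higher in 2, and B lineage markers lower in 3 of 9. Adipocyte markers were higher in 1 and lower in 1 of 6, and neutrophil markers higher in 1 of 8. The shares called among osteoclast (11.1%) and neutrophil (12.5%) markers lay near the 12.9% of all genes tested. Defining markers cannot be read as present or absent, because the values hold no level.

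**Figure D5:**
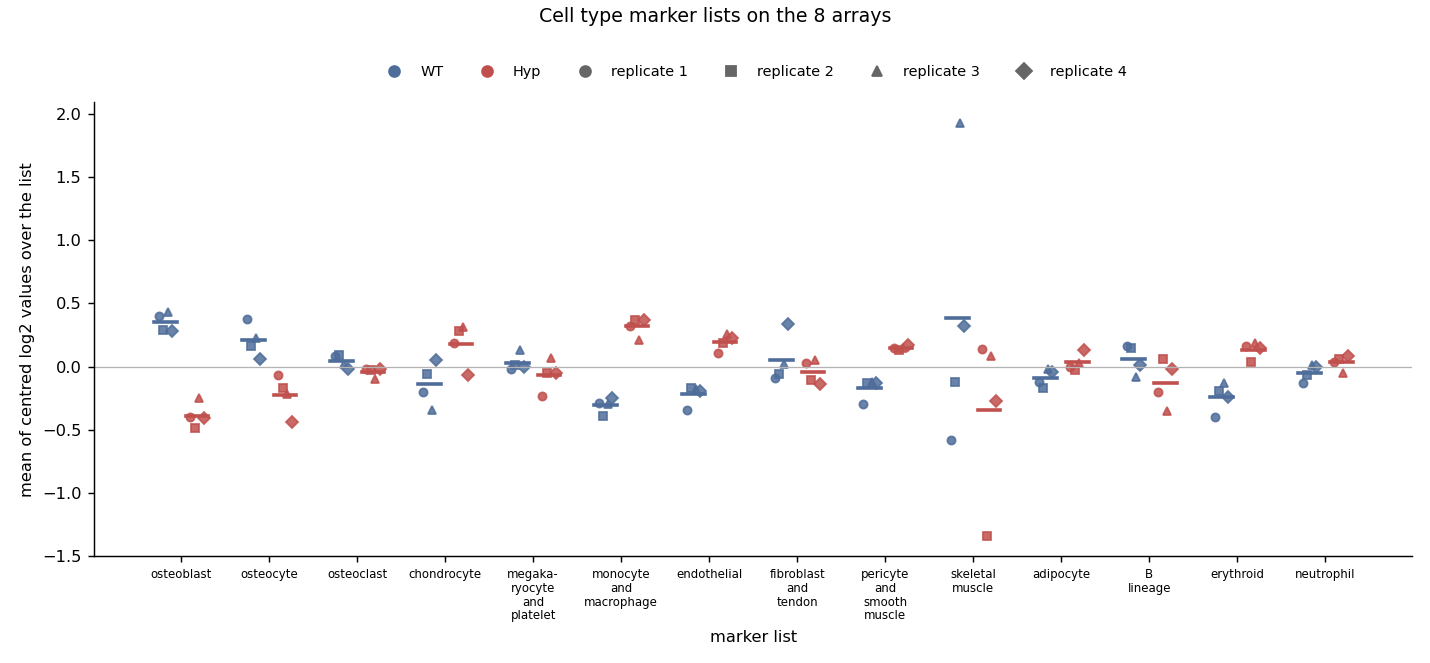
Mean of the centred log2 values over each of 14 marker lists (vertical axis) on the 4 WT and 4 Hyp arrays, with bars for group means. Hyp lies below WT for osteoblast and osteocyte markers, and for osteoclast markers, where the groups meet at -0.02 after rounding. It lies above WT for endothelial, pericyte, macrophage and erythroid markers, and WT replicate 3 stands at 1.93 for skeletal muscle.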

How the data were processed

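Biotin-labelled RNA of 8 samples was hybridised to 3′ expression arrays. The authors deposited 1 log2 value per probe set and array, and the submitters' processing notes name RMA (its version is not given in the sources used here). The median of every probe set over the 8 arrays was 0 within 5e-07, so these values were centred before deposit, a step no label records. The log base was taken as 2, since values of a probe set spanned up to 8.92 units. No 2 arrays were identical. For arrays, their number limits the precision.

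Of 45101 probe sets, 64 controls were left out. Symbols came from the platform annotation and were updated through gene identifiers in RefSeq (GRCm38.p6), where 34741 of 34945 probe sets with a single symbol were found. Another 932 had several symbols and 9160 none, and they stayed in the fit without a name. The genotype difference was fitted by lmFit and eBayes of limma 3.58.1 under R 4.3.3, once over all 45037 probe sets and once over 18193 gene means (mean over a gene's probe sets), two-sided, no covariate, Benjamini-Hochberg adjustment over each whole table. The script was tested on simulated arrays for this comparison (45037 probe sets): it called 38 of 67 probe sets given a shift of 0.5, 63 of 67 given 1 and 66 of 66 given 2, and 9 unshifted ones. The simulated arrays held independent normal noise and only these shifted probe sets, whereas 3212 probe sets passed in the real fit. The counts therefore check the script and do not give the power of that fit.

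The members, lists and tests were chosen with earlier results of these data known. Named are the members, Phex, and up to 4 genes with the smallest p among those passing in each of 5 lists; other genes are said to be named after their values were seen. Alternatives were further normalization, the replicate number as a block, array weights, a robust prior, other thresholds, a filter on the SD, other choices of probe sets and leaving out arrays.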

Additional observations from a re-analysis of the deposited data

Results flagged for a closer look

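In groups of 4 arrays, a single array lay far from the other 3 at 4 member probe sets, among 68 groups of member probe sets and gene means examined, of which chance flags about 1 in 20. At 1 probe set of Tgfb1 (1420653_at) Hyp replicate 3 lay at 0.13 and the other Hyp arrays between -0.02 and 0.01. At 1 probe set of Ltbp1 (1447547_at) Hyp replicate 4 lay at -0.27 and the others between 0.03 and 0.06. At 1 probe set of Ltbp3 (1437833_at) WT replicate 3 lay at 0.61 and the others between -0.40 and -0.24. At 1 probe set of Tgfbr2 (1422019_at) WT replicate 4 lay at -0.15 and the others between -0.01 and 0.02. None of these probe sets passed with all 8 arrays, and 1437833_at differed by 0.40 without WT replicate 3 (limma adjusted p = 0.0351).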

How the results depend on the processing

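The calls of Tgfb2, Ltbp2 and Ltbp4 on gene means held under every alternative that could be run for them, with differences from -0.51 to -0.33, from 0.80 to 1.03 and from 0.33 to 0.45. Ltbp4 had no value without probe sets of a shared-probe suffix. Tgfbr3 held except without Hyp replicate 3, Hyp replicate 4 or WT replicate 1 (adjusted p from 0.0509 to 0.0662) and at a threshold of 0.01. With 1 array left out, from 2 to 4 probe sets and 2 to 3 genes were higher, and from 1 to 4 probe sets and 1 to 2 genes were lower. In the pathway lists from 10 to 20 genes were then higher, and 12 to 18 lower. Without both WT replicate 3 and Hyp replicate 2, 4 probe sets and 2 genes were lower. At an adjusted p of 0.01, 1 probe set was higher and 0 lower, and at 0.10, 5 were higher. With the replicate number as a block, 3 probe sets were higher and 3 lower, and the same 3 and 1 genes passed. Same-numbered arrays did not all deviate together (correlations 0.145, -0.044, 0.262 and 0.179), and Hyp replicate 1 correlated best with WT replicate 2 (0.199), so the samples were taken to share only a number, although 3 of the 4 correlations were above 0.1. Under the block, Itgb8 (pathway list) and Cdkn1a (pathway list) did not pass (adjusted p = 0.0641 and 0.0525). Tgfbr2 lay at -0.08 by its probe set of the largest SD. No result past the threshold changed direction. A filter on level needs levels and was not run.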
